A study of Sus scrofa with 18 samples.

Results

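Neurexins and their postsynaptic partners were followed through fetal brain development of the domestic pig (Sus scrofa). The set was defined by gene name and held 9 genes, namely the neurexins NRXN2 and NRXN3, the neuroligins NLGN1, NLGN2 and NLGN3, and the leucine-rich repeat transmembrane proteins LRRTM1, LRRTM2, LRRTM3 and LRRTM4. Of the 9 names, 8 matched a row among the 31908 genes of the deposited gene-wise count table, and NLGN2 matched none in the gene-wise or the exon-wise table, so it was not analysed here. All 8 passed the filter on low counts that left 16325 genes for testing. Neurexins are adhesion receptors of the presynaptic membrane. Neuroligins and LRRTMs sit in the postsynaptic membrane, bind neurexins across the cleft and recruit the scaffolds and receptors of the synapse, so that the set forms a bridge between both sides of a synapse. Which partner a neurexin binds depends in part on alternatively spliced exons.

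Whole brains were collected at gestation day (GD) 45, 60 and 90 from untreated fetuses of crossbred gilts (Landrace and Large White) inseminated with semen of the LR-M6 line, and the RNA of each brain was sequenced after enrichment of messenger RNA with oligo(dT) beads. Each combination of day and sex was represented by 3 fetuses, giving 18 libraries and 6 per day. Fetuses are named here by sex, day and replicate, where the replicate is the piglet number of the sample title. The litter was not named, but day and litter size together pointed to 3 litters per day, each with 1 female and 1 male. All values come from tissue that mixes every cell type of the brain, in which fewer cells of a type and less RNA per cell cannot be told apart.

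The genes are spread over 6 chromosomes of the Sscrofa11.1 build. NRXN3 was the longest (chr7:101132830-102777822, plus strand), and NLGN3 was the one member on the X chromosome (chrX:57176103-57201486, plus strand). NLGN1 lies at chr13:112036053-112725618 on the plus strand. LRRTM1 (chr3:63587499-63590407, plus strand), LRRTM2 (chr2:140803120-140809495, minus strand) and LRRTM3 (chr14:70172731-70348040, plus strand) each lie within an alpha-catenin gene, CTNNA2, CTNNA1 and CTNNA3 respectively, on the opposite strand and with 0 shared exon bases. LRRTM4 (chr3:66128689-66884740, plus strand) overlaps no other annotated gene. NLGN3 shares 452 exon bases with GJB1, a connexin gene on the same strand that held 314 counts over all libraries.

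The row named NRXN2 (ENSSSCG00000033229, chr2:7478750-7515943, plus strand) covers only a part of the gene. The RefSeq model of NRXN2 spans chr2:7454771-7554180 in 25 coding exons, 10 of which have the same ends as exons of the named row and 5 of which have the same ends as exons of a row without a name just downstream (ENSSSCG00000013024, chr2:7520074-7554335, plus strand). The model starts upstream of both rows, so that together they do not span all of it. Both rows are given below, the second as the row downstream of NRXN2. The named row has an exonic length of 3993 bases and the downstream row one of 2147 bases.

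Pairs of short exons show how alike the neurexins are where their rows can be compared. They are printed 5′ to 3′ from the RefSeq genome of Sscrofa11.1, each matches a RefSeq coding exon at both ends, and capitals mark bases that are identical between the members of a pair. The 27-base exons share 13 of 27 bases and the 120-base exons 91 of 120.
NRXN2 27-base exon, chr2:7509567-7509593, plus strand: ACTGccTgcGcgTcggCTGcgcacCCA
NRXN3 27-base exon, chr7:101767817-101767843, plus strand: ACTGtaTcaGgaTaaaCTGtaactCCA
NRXN2 120-base exon, chr2:7511011-7511130, plus strand: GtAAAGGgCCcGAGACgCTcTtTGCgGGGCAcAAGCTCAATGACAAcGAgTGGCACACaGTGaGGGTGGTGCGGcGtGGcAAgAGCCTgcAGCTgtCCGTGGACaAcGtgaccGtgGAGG
NRXN3 120-base exon, chr7:101909447-101909566, plus strand: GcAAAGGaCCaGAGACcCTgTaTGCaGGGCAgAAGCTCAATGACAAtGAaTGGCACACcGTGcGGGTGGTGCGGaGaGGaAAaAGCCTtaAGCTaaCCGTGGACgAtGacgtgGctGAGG

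Among the exon pairs of equal length compared in NRXN2, its downstream row and NRXN3, the longest run of identical bases was 35, in the 174-base exon, and the 790-base exon of NLGN1 and NLGN3 had 71.01% identity with a longest run of 14. The reads were 150 bases long. Coverage of the printed exons differed widely. The 27-base exon had 79 counts over all 18 libraries in NRXN2 and 0 in NRXN3, which allows up to 3 counts, and the 120-base exon had 750 and 32.

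NLGN3 carries a pair of 60-base exons at its splice site A, the insertion site in the cholinesterase-like domain that binds neurexin. They are shown because the exon counts separate them, with 20 counts over all libraries for the first and 81 for the second, and they share 19 of 60 bases in an ungapped comparison. The 213-base exon of NLGN1 is shown because it was the one NLGN1 exon whose level passed the test described below. No capitals are used in these lines.
NLGN3 first 60-base exon, chrX:57180079-57180138, plus strand: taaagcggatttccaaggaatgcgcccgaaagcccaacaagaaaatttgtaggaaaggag
NLGN3 second 60-base exon, chrX:57184532-57184591, plus strand: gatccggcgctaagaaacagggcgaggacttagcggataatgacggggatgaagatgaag
NLGN1 213-base exon, chr13:112715681-112715893, plus strand: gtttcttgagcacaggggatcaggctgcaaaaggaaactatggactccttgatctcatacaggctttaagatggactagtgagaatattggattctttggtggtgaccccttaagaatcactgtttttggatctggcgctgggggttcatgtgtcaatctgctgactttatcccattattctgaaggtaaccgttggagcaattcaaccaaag

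Library totals were between 15118843 and 19729783 counts. Levels are given as CPM, that is counts scaled to a common library size after correction of the totals by the trimmed mean of M-values (TMM), and 3 counts, the number that a count of 0 allows, amounted to 0.153 to 0.233 CPM. All 12 neuronal markers (SNAP25, STMN2, TUBB3 and others) were in the table and summed to 6625 to 9197 CPM at GD45 and 9426 to 11395 CPM at GD90. Male GD45 replicate 17 stood apart: its summed red cell markers were 791 CPM against 249 to 363 in the other GD45 libraries, its radial glia markers 3342 against 1791 to 2057 and its astrocyte markers 220 against 278 to 375. Libraries also differed in how far reads reached upstream of the 3′ end. The upstream share, defined as the median over 10233 genes of the percentage of exon counts outside the last exon, was 76.9% in replicate 17 and 81.3% to 88.7% in the other 17 libraries, with day medians of 84.1% at GD45, 84.1% at GD60 and 87.7% at GD90. Levels of the set that move with this share are given with it below. They come first as fitted by day and sex and then with the share as a covariate, a fit chosen after the data were seen. Exons, and the shares of genes in their families, were not fitted with it. Pathway genes, cell type markers and the genes that contain an LRRTM are given without it.

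More of the set passed the test between GD60 and GD90 than between GD45 and GD60. Between GD45 and GD60, 1 of the 8 genes rose and 1 fell, where 9.35% of all tested genes rose and 7.37% fell. Between GD60 and GD90, 6 of 8 rose and 0 fell, against 21.4% and 20.9% of all genes, and from GD45 to GD90 7 of 8 rose and 0 fell, against 28.3% and 29.3%. The median log2 fold change of the 8 genes was 0.19, 0.53 and 0.62 in these comparisons, beside medians of -0.01, -0.01 and -0.03 over all genes tested. The comparison of GD90 with GD45 shares its libraries with the other comparisons and adds no independent evidence to them. All p-values of genes are from the quasi-likelihood F test of edgeR with Benjamini-Hochberg adjustment over all genes.

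**Figure D1:**
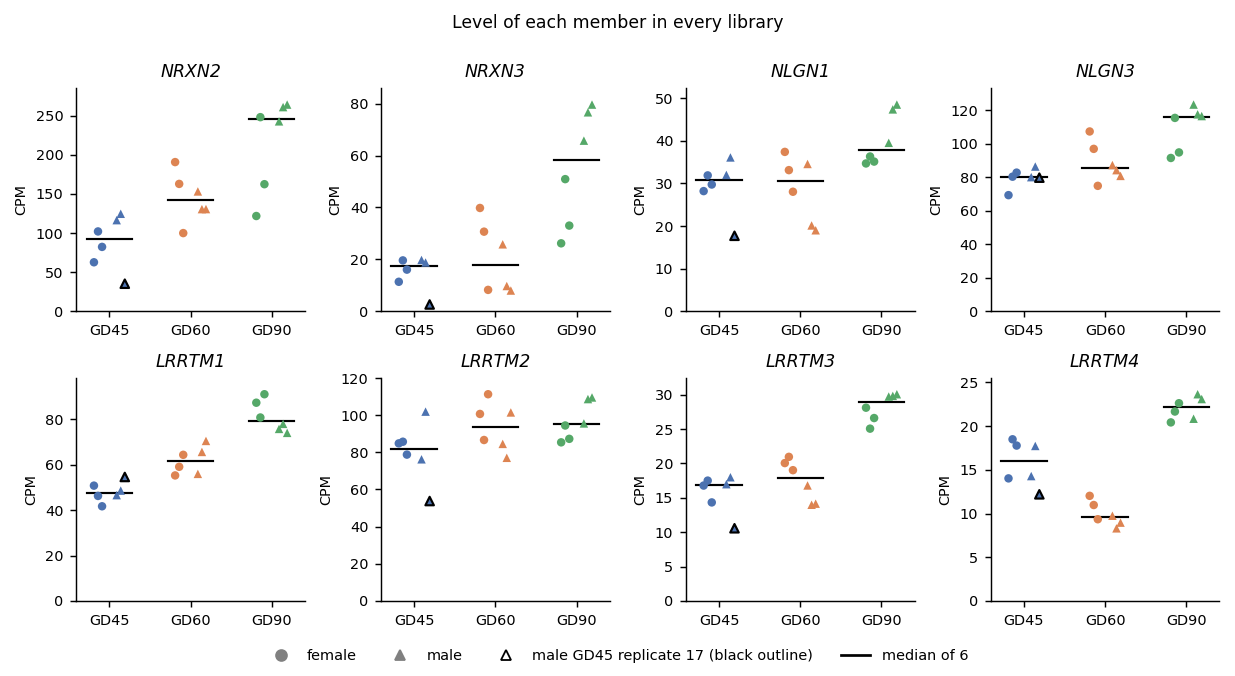
CPM (vertical axis, linear from 0) of the 8 genes in every library by gestation day; circles are females, triangles males, horizontal bars the median of 6 libraries, and the black outline marks male GD45 replicate 17. LRRTM1 steps up at both intervals without overlap between days, LRRTM4 dips at GD60, and NRXN3 spreads from 8.00 to 39.8 CPM within GD60.

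NRXN2 encodes a presynaptic neurexin. Its named row had 35.3 CPM in the lowest, 92.2 in the median and 125 in the highest library at GD45, 99.995, 142 and 190.7 at GD60, and 122, 245 and 264 at GD90. The days overlapped at both steps, and GD90 overlapped GD45 through 1 library each, the GD90 female replicate 2 at 121.82 and the GD45 male replicate 14 at 124.66 CPM. NRXN2 was higher at GD90 than at GD45 by 1.29 on the log2 scale (SE 0.25, adjusted p = 0.000385), whereas the steps of 0.73 (SE 0.25, adjusted p = 0.0573) and 0.56 (SE 0.25, adjusted p = 0.0832) did not pass the threshold of 0.05. The level of NRXN2 moved with the upstream share by 0.19 log2 units per percentage point (adjusted p = 1.84e-09), and by 0.19 without replicate 17 (adjusted p = 6.23e-07). Among all genes, 43.6% had such a slope past the threshold, 21.2% rising and 22.3% falling. With the share as a covariate both steps passed, at 0.49 (adjusted p = 8.47e-06) and 0.21 (adjusted p = 0.00841), and the difference between GD90 and GD45 was 0.69 (adjusted p = 6.51e-08). The first step also passed in 4 of the other 9 settings, DESeq2 among them, and without replicate 11, 14, 15 or 17, and the second passed with only the libraries compared and without replicate 17 (adjusted p = 0.0104).

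The row downstream of NRXN2, which covers the 3′ part of the gene, varied less between libraries of a day. It had 228, 325 and 351 CPM (lowest, median and highest) at GD45, 272, 375 and 413 at GD60, and 464, 505 and 550 at GD90, so that every GD90 library lay above every library of the earlier days. Its increase was 0.47 between GD60 and GD90 (SE 0.11, adjusted p = 0.00228) and 0.72 between GD45 and GD90 (SE 0.11, adjusted p = 2.92e-05), and the change from GD45 to GD60 was 0.25 (SE 0.11, adjusted p = 0.131). With the share as a covariate these were 0.37 (adjusted p = 0.000211), 0.52 (adjusted p = 1.83e-05) and 0.15 (adjusted p = 0.142). The ratio of downstream CPM to NRXN2 CPM was 2.63 to 6.46 at GD45, 2.16 to 2.89 at GD60 and 1.76 to 4.22 at GD90. The highest ratio belonged to male replicate 17 at GD45 and to female replicate 2 at GD90. These libraries had the lowest upstream shares of their days, 76.9% and 82.9%. Between GD60 and GD90 the named row gave 0.56 (SE 0.25) beside 0.47 (SE 0.11) downstream, and with the covariate 0.21 beside 0.37. The 2 rows were not tested against each other. The choice of row sets the size printed for NRXN2.

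**Figure D2:**
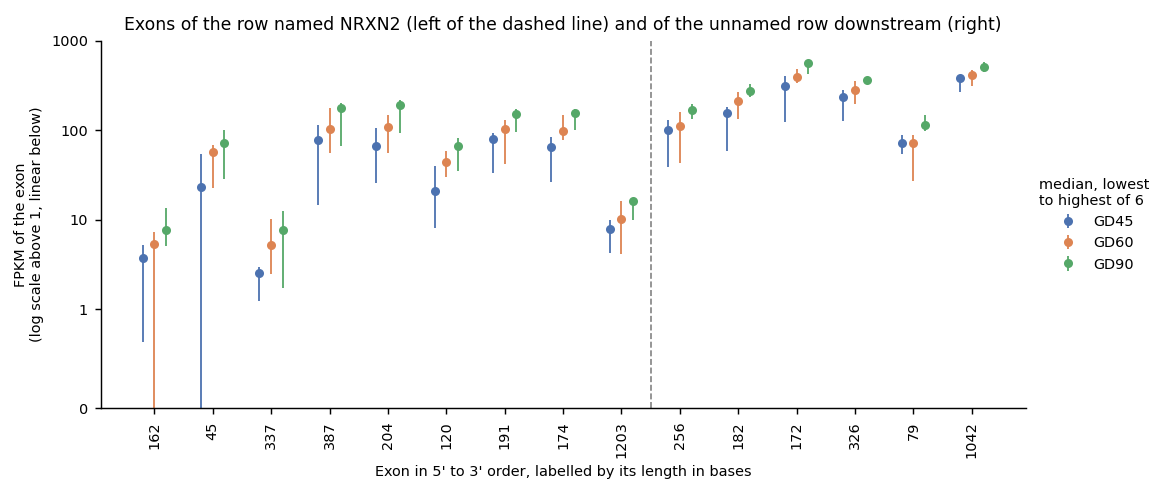
Scaled counts per 1000 bases (FPKM, vertical axis, logarithmic above 1 and linear below) of the tested exons of NRXN2 and 6 exons downstream. The exons are in 5′ to 3′ order, each labelled by its length, and the last 6 belong to the row downstream. Points are medians and bars the range of 6 libraries per day. Counts were scaled here to the raw exon totals of the libraries, without TMM correction. These values cannot be set beside the FPKM of genes. The 1042-base 3′ exon had medians of 387, 409 and 513 FPKM from GD45 to GD90, while the 204-base exon of the named row had 66.0, 109 and 191.

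NRXN3, the second neurexin, had the largest increase of the set between GD60 and GD90 in the fit by day and sex, whereas with the share as a covariate that of LRRTM4 was larger (1.07 against 0.95). It had 2.64 CPM in the lowest, 17.4 in the median and 19.8 in the highest library at GD45, 8.00, 17.8 and 39.8 at GD60, and 26.2, 58.3 and 79.6 at GD90. GD45 and GD60 overlapped, GD60 and GD90 overlapped, and all 6 GD90 libraries lay above all 6 at GD45. NRXN3 rose 2.67-fold between GD60 and GD90, by 1.42 on the log2 scale (SE 0.42, adjusted p = 0.0116), and by 1.82 from GD45 (SE 0.42, adjusted p = 0.0015), while the change between GD45 and GD60 was 0.40 (SE 0.42, adjusted p = 0.559).

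The GD60 libraries of NRXN3 fell into a high and a low set. Females 3 and 5 and male 4 had 39.8, 30.7 and 25.8 CPM, and female 15 and males 6 and 16 had 8.25, 9.74 and 8.00. The first 3 also had the highest upstream shares of that day, 84.5% to 88.2%, and the other 3 had 82.4% to 83.7%. The slope of NRXN3 on the share was 0.32 log2 units per percentage point (adjusted p = 2.68e-06), and 0.33 without replicate 17 (adjusted p = 0.000391). With the share as a covariate, NRXN3 still rose between GD60 and GD90, by 0.95 (adjusted p = 0.000226), and the change between GD45 and GD60 was -0.04 (adjusted p = 0.912).

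**Figure D3:**
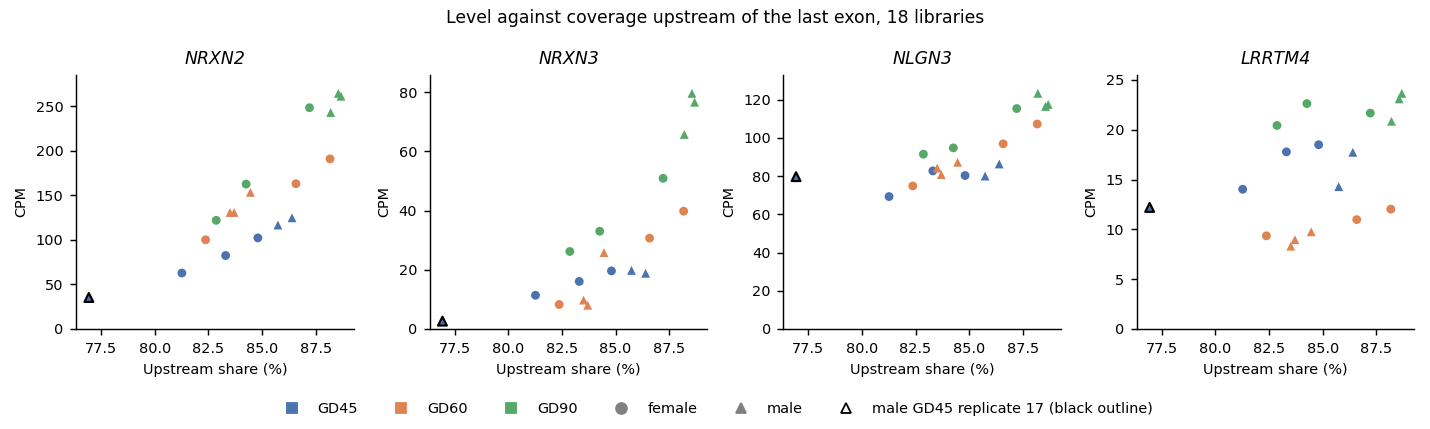
CPM (vertical axes) of NRXN2, NRXN3, NLGN3 and LRRTM4 against the upstream share of the library in percent (horizontal axes); colours mark the gestation day, circles females, triangles males, and the black outline male GD45 replicate 17. NRXN2 and NRXN3 tend to be higher where the share is higher, and the 6 GD60 libraries of LRRTM4, at 8.31 to 12.03 CPM and shares of 82.4% to 88.2%, lie below the other days.

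In the fit by day and sex the neuroligins changed less than the neurexins at both steps. With the share as a covariate NRXN2 had the smaller change between GD60 and GD90, 0.21 beside 0.34 for NLGN1 and 0.25 for NLGN3. NLGN1, known from excitatory synapses, had 17.7, 30.8 and 36.1 CPM (lowest, median and highest) at GD45, 19.01, 30.6 and 37.4 at GD60, and 34.7, 37.9 and 48.5 at GD90. The ranges of all days overlapped. NLGN1 rose between GD60 and GD90 by 0.49 (SE 0.17, adjusted p = 0.0239) after a change of -0.04 (SE 0.17, adjusted p = 0.892) between GD45 and GD60, and its GD90 level was 0.45 above GD45 (SE 0.16, adjusted p = 0.0282). The increase from GD60 did not pass without TMM scaling (adjusted p = 0.0793), or when replicate 6, 8, 10, 15 or 16 was left out (highest adjusted p = 0.0674). The slope of NLGN1 on the upstream share was 0.09 (adjusted p = 0.00248), but 0.07 without replicate 17 (adjusted p = 0.143). With the covariate the values were 0.34 (adjusted p = 0.0212) for GD90 against GD60 and 0.17 (adjusted p = 0.287) for GD90 against GD45. The latter was also lost without TMM scaling and without replicate 7, 8, 10, 12, 17 or 18 (highest adjusted p of these left-out fits = 0.0599).

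NLGN3, found at both excitatory and inhibitory synapses, had 69.3, 80.2 and 86.4 CPM at GD45, 74.9, 85.7 and 107 at GD60, and 91.5, 116 and 123 at GD90. GD60 overlapped both other days, and every GD90 library lay above every GD45 library. NLGN3 rose between GD60 and GD90 by 0.31 (SE 0.09, adjusted p = 0.0125) and from GD45 to GD90 by 0.46 (SE 0.09, adjusted p = 0.000442), and the first interval gave 0.15 (SE 0.09, adjusted p = 0.292). Without TMM scaling the call at GD90 against GD60 was lost (adjusted p = 0.0634). Its slope on the share was 0.04 with replicate 17 (adjusted p = 0.038) and 0.09 without it (adjusted p = 0.0014), and the covariate fit gave 0.25 (adjusted p = 0.0118) for GD90 against GD60.

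The LRRTMs are postsynaptic proteins that bind neurexins, and LRRTM4 also binds heparan sulphate proteoglycans such as glypicans. LRRTM1 had 41.7, 47.6 and 54.6 CPM (lowest, median and highest) at GD45, 55.2, 61.7 and 70.4 at GD60, and 74.0, 79.3 and 91.0 at GD90. The days did not overlap at either step. In the fit by day and sex LRRTM1 was the one gene of the set that rose at both, as NRXN2 also did with the covariate. It rose by 0.36 (SE 0.08, adjusted p = 0.00559) and 0.39 (SE 0.08, adjusted p = 0.00104), and these calls held in all 10 analysis settings and in all 18 fits that omitted 1 library. Its slope on the upstream share was -0.03 (adjusted p = 0.0718).

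LRRTM4 moved in opposite directions at the 2 intervals. It had 12.2, 16.0 and 18.5 CPM at GD45, 8.31, 9.55 and 12.03 at GD60, and 20.4, 22.2 and 23.7 at GD90, with no overlap between any pair of days. LRRTM4 fell by 0.67 on the log2 scale between GD45 and GD60 (SE 0.11, adjusted p = 0.000561) and rose 2.24-fold, or by 1.16 (SE 0.11, adjusted p = 5.29e-07), between GD60 and GD90, and its GD90 level was 0.49 above that at GD45 (adjusted p = 0.0013). Its slope on the share was 0.05 (adjusted p = 0.0167), and 0.07 without replicate 17 (adjusted p = 0.0735). With the share as a covariate the values were -0.75 (adjusted p = 8.12e-06) and 1.07 (adjusted p = 1.83e-08). Both calls held in all 10 settings and with each library left out.

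LRRTM3 had 10.6, 16.9 and 18.0 CPM at GD45, 13.99, 17.9 and 20.95 at GD60, and 25.1, 28.9 and 30.1 at GD90. All GD90 libraries lay above all earlier ones, and GD45 and GD60 overlapped. LRRTM3 rose between GD60 and GD90 by 0.70 (SE 0.12, adjusted p = 0.000121), whereas the first interval gave 0.14 (SE 0.12, adjusted p = 0.453). Its slope on the share was 0.05 (adjusted p = 0.034), and 0.01 without replicate 17 (adjusted p = 0.832). The covariate fit gave 0.62 (adjusted p = 3.04e-05) for GD90 against GD60 and 0.07 (adjusted p = 0.646) for GD60 against GD45.

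LRRTM2 was the one gene measured that passed in none of these comparisons. It had 53.8, 81.8 and 102 CPM at GD45, 77.1, 93.7 and 111 at GD60, and 85.4, 95.0 and 110 at GD90 (109.54 in the highest library). The ranges of the days overlapped throughout. Its log2 fold changes were 0.22 (SE 0.12, adjusted p = 0.246), 0.05 (SE 0.12, adjusted p = 0.79) and, over both intervals, 0.27 (SE 0.12, adjusted p = 0.0752). Without male replicate 14 the first and the last passed, with adjusted p = 0.0347 and 0.00535. With the covariate the change between GD60 and GD90 was -0.04 (adjusted p = 0.773).

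Non-overlap between days can be read against all tested genes. Between GD45 and GD60, 1 of 8 genes lay wholly above and 1 wholly below (4.62% and 3.84% of all genes). Between GD60 and GD90, LRRTM1, LRRTM3 and LRRTM4 lay wholly above (12.9% of all genes) and 0 below (11.2%). Between GD45 and GD90, NRXN3, NLGN3, LRRTM1, LRRTM3 and LRRTM4 lay above (17.5%) and 0 below (16.4%). Of the genes that contain an LRRTM, CTNNA1, the host of LRRTM2, fell between GD45 and GD60 by 0.44 (SE 0.08, adjusted p = 0.00104), while CTNNA2 and CTNNA3 gave -0.03 (adjusted p = 0.902) and -0.38 (adjusted p = 0.672). Between GD60 and GD90 CTNNA3, the host of LRRTM3, rose by 1.58 (SE 0.49, adjusted p = 0.0154), from a median of 0.195 to 0.559 CPM, while CTNNA1 and CTNNA2 gave -0.17 (adjusted p = 0.0981) and 0.15 (adjusted p = 0.396). CTNNA3 was near the floor, with 106 counts over all libraries and a GD60 median within the 0.153 to 0.233 CPM of 3 counts. The strand setting of the read counting is not given in the sources used here.

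**Figure D4:**
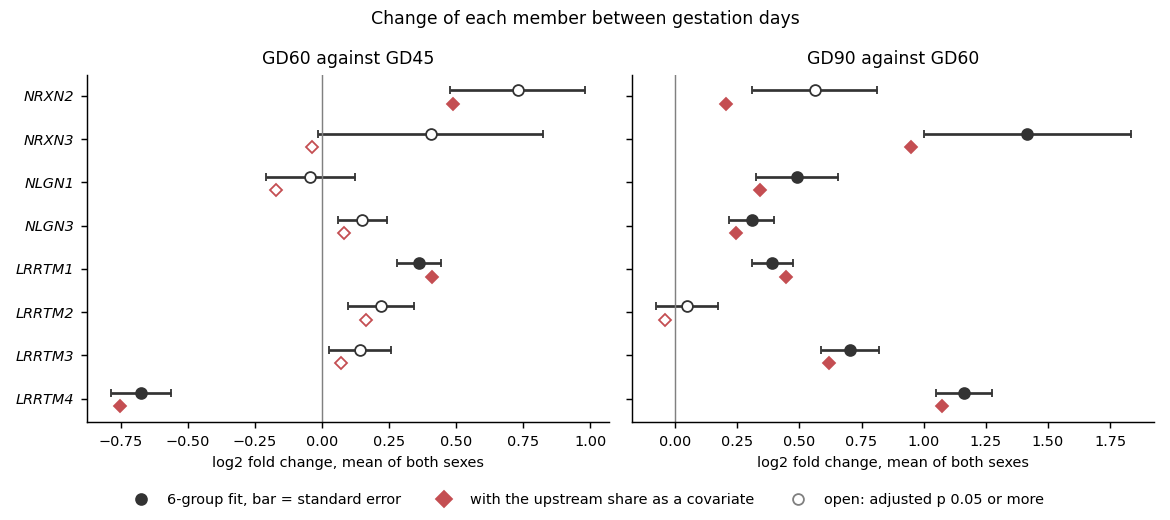
Log2 fold change (horizontal axes, mean of both sexes) of the 8 genes between consecutive days, with bars for the standard error; circles are from the fit by day and sex, diamonds from the fit with the upstream share as a covariate, and open symbols had an adjusted p of 0.05 or more. The diamond of NRXN3 lies at -0.04 in the left panel and at 0.95 in the right, beside circles at 0.40 and 1.42, while both symbols of LRRTM1 and of LRRTM4 lie within 0.1 of each other.

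Levels of different genes were compared per length, as FPKM from the deposited gene lengths. At GD90 the order of the medians was NRXN2 with 61.5 FPKM, LRRTM1 with 30.1, NLGN3 with 23.6, LRRTM2 with 15.8, NLGN1 with 6.12, LRRTM4 with 4.93, NRXN3 with 4.25 and LRRTM3 with 3.05. The ranges over 6 libraries overlapped between the neighbours NRXN2 and LRRTM1, LRRTM4 and NRXN3, and NRXN3 and LRRTM3, and were separate between the other neighbours. The deposited length of NRXN3, 13708 bases, is the length by which its FPKM is divided. Of its 40 rows in the exon-wise table, 28 were below the filter, but several of these rows overlap each other and 35.0% of its gene counts are found in that table, so that a row at 0 does not show that no reads fell there.

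The make-up of each family was followed as the share of a gene in the summed FPKM of its family, with exact two-sided permutation tests over 6 against 6 libraries, whose smallest possible p is 0.0021645, and adjustment over 12 tests. The share of LRRTM4 among the 4 LRRTMs was 9.55% ± 1.41 (SD, n = 6) at GD45, 5.16% ± 0.871 at GD60 and 8.97% ± 0.415 at GD90. It fell by 4.40 percentage points and then rose by 3.82, each with the smallest p the permutation test can give (adjusted p = 0.013). LRRTM2 had 36.0% ± 4.91, 36.0% ± 3.07 and 29.4% ± 3.22, and its share fell by 6.65 points between GD60 and GD90 (exact permutation test, adjusted p = 0.0195), so that a gene with no detected change in CPM took a smaller part of its family. LRRTM3 rose by 1.13 points in the same interval (exact permutation test, adjusted p = 0.0364), from 4.32% ± 0.819 to 5.46% ± 0.448. That call was kept in 5 of 12 repeats with 1 library left out and lost without replicate 1, 2, 6, 8, 10, 15 or 16 (exact permutation tests, highest adjusted p = 0.0779).

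LRRTM1 held the largest part, 49.9% ± 6.28, 54.5% ± 3.92 and 56.2% ± 3.87, with differences of 4.58 and 1.70 points that did not pass (exact permutation tests, adjusted p = 0.333 and 0.543). NRXN3 made up 4.46% ± 1.22 of NRXN2 plus NRXN3 at GD45, 3.64% ± 1.75 at GD60 and 6.73% ± 1.15 at GD90, a rise of 3.09 points in the second interval (exact permutation test, adjusted p = 0.0195) that was lost without replicate 1, 8 or 10 (exact permutation tests, highest adjusted p = 0.0519). On CPM without gene length, the rise of NRXN3 was 8.48 points and that of LRRTM3 2.77. NLGN1 made up 22.4% ± 3.76, 20.3% ± 3.54 and 22.5% ± 2.01 of NLGN1 plus NLGN3, and neither difference passed (exact permutation tests, adjusted p = 0.383 and 0.371). NLGN2 is not in this sum. Of the 6 shares, 1 changed in the first interval and 4 in the second.

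**Figure D5:**
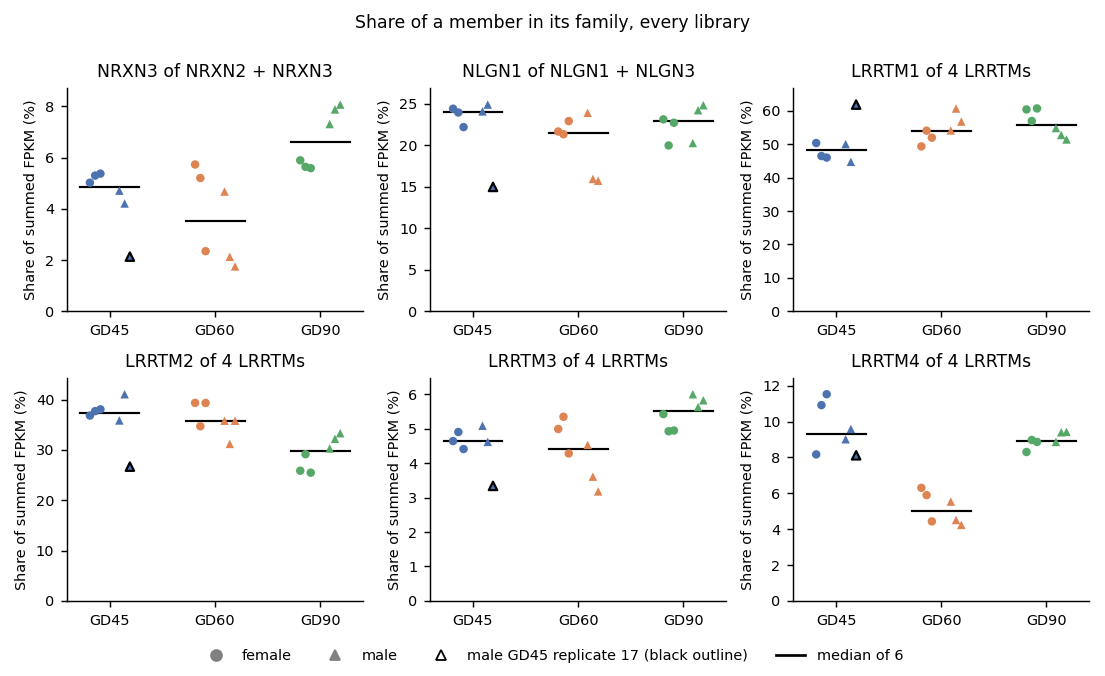
Share of a gene in the summed FPKM of its family in percent (vertical axes, linear from 0) in every library by gestation day, with the median of 6 as a bar; circles are females, triangles males, and the black outline marks male GD45 replicate 17. The LRRTM4 shares at GD60, 4.24% to 6.31%, lie below those of both other days, and replicate 17 sits at the edge of its day for NRXN3, NLGN1, LRRTM1 and LRRTM2.

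The exon-wise table was used to see which stretches of the genes carried these changes. It holds only part of the gene counts, from 35.0% for NRXN3, 42.1% for NRXN2 and 48.0% for LRRTM4 to 99.6% for LRRTM2, and its rows can overlap each other. CPM of exons were scaled to TMM-corrected totals of the exon counts, not of the gene counts. Exon counts summed to 6988796 to 9214794 per library, so CPM of an exon cannot be set beside CPM of its gene. Between GD45 and GD60, 2 exons of the set passed among 80134 exons tested, of which 1.96% passed in all. The 3568-base exon of LRRTM4, which lies at chr3:66131214-66134781, fell by 1.06 (adjusted p = 0.0393), from a median of 13.7 CPM to 6.12, and the 120-base exon of NRXN2 printed above rose by 0.93 (adjusted p = 0.0486), from 2.58 to 5.30. Each call was lost in some settings, the second in all 4 that were run on exons (adjusted p up to 0.134).

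Between GD60 and GD90, 12 exons of the set passed and all 12 rose, where 12.6% of all exons passed and 6.48% rose. They were 9 of the 12 tested exons of NRXN3, with log2 fold changes from 1.48 to 2.42, the 703-base first exon of LRRTM4 (1.37, adjusted p = 0.00661) together with its 3568-base exon (0.94, adjusted p = 0.0218), and the 213-base exon of NLGN1 (1.81, adjusted p = 0.0161). The NLGN1 exon went from a median of 0.65 to 1.50 CPM, on 169 counts over all libraries. The other exons of NLGN1 did not pass, and its 4551-base last exon gave 0.24 (adjusted p = 0.41). The last exon of NLGN3, 2865 bases long, gave 0.11 (adjusted p = 0.713), and the upstream share of NLGN3 itself had medians of 21.9%, 26.9% and 34.0% from GD45 to GD90. That of NLGN1 had medians of 15.6%, 15.2% and 27.4%. No exon was fitted with the upstream share of the library as a covariate, so the part of coverage in these 12 calls was not tested.

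Exon usage, that is the change of an exon relative to the other exons of its gene, passed for 0 exons of the set in either interval (edgeR diffSpliceDGE). Of all 76800 exons tested, 0.013% passed between GD45 and GD60 and 0.1% between GD60 and GD90. At an unadjusted p under 0.05, where 4.94% and 4.32% of all exons lay, there were 2 exons of the set in the first interval, the 657-base and the 150-base exon of NLGN3, and 1 in the second, the 213-base exon of NLGN1. On simulated counts for GD90 against GD60 the usage test recovered 12.9% of exons with a log2 change of 1 and 68.8% with 2. It also made 35 false calls. Moderate changes in splicing were thus mostly missed in the simulation. Apart from the added changes, each exon was drawn independently around its mean over all libraries. Differences in coverage were not modelled, so the limit of detection in these libraries themselves was not measured.

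NRXN3 is transcribed as a long (alpha) form and, from an internal promoter, a shorter (beta) form. Among its tested exons, 6 used by the long form alone had 181, 299 and 951 counts over the libraries of GD45, GD60 and GD90. For 3 exons common to both forms the sums were 151, 176 and 598. The first tested exon (18, 22 and 82 counts) and the last (91, 112 and 209) were left out of both sums. The exon that starts the short form had 34, 23 and 47 counts. The 6 exons of the long form thus made up 54.5%, 62.9% and 61.4% of the first 2 sums together. Over single libraries they reached at most 66.2%, 83.3% and 68.3%. The lowest library was replicate 17, with 3 counts in the first sum and 7 in the second. These are descriptions without a test, as single libraries held as few as 3 such counts.

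The sexes were compared at each day. Of the 8 genes, 0 differed between males and females at GD45, GD60 or GD90 in edgeR, where 0.0919%, 0.098% and 0.098% of all genes did, and DESeq2 and the likelihood ratio test gave 0 as well. At GD90 with only the libraries compared, 1062 genes passed, and 1 of the 8, NRXN3, which was higher in males. At an unadjusted p under 0.05 there was 1 gene at GD60 (4.8% of all genes) and 0 at the other days. It was LRRTM3, lower in males by 0.42 (SE 0.16, adjusted p = 0.779). LRRTM3 had 19.02 to 20.95 CPM in the 3 GD60 females and 13.99 to 16.8 in the 3 males. At GD90 the ranges of the sexes lay apart for NRXN3, NLGN1, NLGN3, LRRTM1, LRRTM2 and LRRTM3. How many of all genes lay apart with 3 libraries against 3 was not counted. On simulated counts for males against females at GD90 the test recovered 56% of genes with a log2 difference of 1 and 82% with 2.

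Within females 1 of 8 genes changed between GD45 and GD60 (7.22% of all genes) and 2 between GD60 and GD90 (27.1%). LRRTM4 fell by 0.64 and then rose by 1.00, and LRRTM1 rose by 0.54 in the second interval. Within males 1 of 8 changed in the first interval (5.61% of all genes) and 5 in the second (34.5%). LRRTM4 fell by 0.71 and rose by 1.32, and NRXN3 (2.35), NLGN1 (0.88), NLGN3 (0.50) and LRRTM3 (1.00) rose in the second. With the share as a covariate NRXN3 gave 0.91 and NLGN1 0.48 in males (adjusted p = 0.0257 and 0.0565), and 5 of the 8 genes passed in each sex.

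That more genes passed in males does not show that the sexes differed. The interaction of sex and period passed for 0 of 16325 genes in either interval (edgeR, 0.0%), with 2.04% and 19.8% of all genes at an unadjusted p under 0.05. DESeq2 gave 0 and 268 genes and the likelihood ratio test 0 and 129, with 0 of the 8 members in each. In the second interval NRXN3 (1.86, SE 0.83, adjusted p = 0.238), NLGN1 (0.77, SE 0.33, adjusted p = 0.232), NLGN3 (0.39, SE 0.18, adjusted p = 0.251) and LRRTM3 (0.58, SE 0.23, adjusted p = 0.217) were among the genes at an unadjusted p under 0.05 in edgeR. NRXN3 had 26.2 to 50.9 CPM in GD90 females and 65.7 to 79.6 in GD90 males, and the upstream shares of the same libraries were 82.9% to 87.2% and 88.2% to 88.7%. With the share as a covariate the interaction of NRXN3 was -0.07 (adjusted p = 0.986). With only the libraries compared, 1145 genes passed the interaction test of the second interval, and LRRTM3 was among them (adjusted p = 0.0497). Without replicate 17, 2209 genes passed it, LRRTM3 again included (adjusted p = 0.0319).

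Other genes of the trans-synaptic pathway were counted in 4 lists, none of which was tested as a group. Their changes are from the fit by day and sex alone, and how they move with the upstream share is not given. Over all genes 9.35% rose and 7.37% fell in the first interval, and 21.4% rose and 20.9% fell in the second. Of 22 tested ligands and surface partners of neurexins and LRRTMs, 6 rose and 2 fell between GD45 and GD60 (median log2 fold change 0.26) and 10 rose and 3 fell between GD60 and GD90 (median 0.34). In the first interval the neurexophilin NXPH2 (0.54), the cerebellin receptor GRID1 (0.53) and MDGA1, which binds neuroligins (0.52), rose, and the glypican GPC4 (-0.60) and NXPH4 (-0.57) fell. In the second, the secreted C1q-like proteins C1QL3 (1.53) and C1QL1 (1.34) and the calsyntenin CLSTN3 (1.02) rose, while CLSTN2 (-0.56), NXPH4 (-0.55) and GPC4 (-0.49) fell. GPC4, a glypican partner of LRRTM4, therefore fell in both intervals, whereas LRRTM4 fell in the first and rose in the second.

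Of 17 intracellular partners, 5 rose and 0 fell in the first interval (median 0.35) and 9 rose and 2 fell in the second (median 0.55). The scaffold gene DLG2 (0.84), the calcium sensor of release SYT1 (0.54) and DLGAP1 (0.49) led the first, and the membrane fusion factor NSF (1.55), SYT1 (1.23) and the adaptor APBA1 (0.95) the second, in which LIN7A (-0.53) and APBA2 (-0.46) fell. Of 37 other synaptic organizers, 6 rose and 0 fell, then 10 rose and 3 fell (medians 0.28 and 0.16). SLITRK5 (0.77), NTNG2 (0.73) and TENM3 (0.66) rose first, and IL1RAP (1.83), IGSF9B (1.69) and CADM2 (1.43) rose in the second interval, with ADGRL2 (-0.79), FLRT2 (-0.77) and PTPRS (-0.21) falling.

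Of 11 tested regulators of neurexin splicing, 1 rose and 3 fell between GD45 and GD60 (median -0.09), and 1 rose and 5 fell between GD60 and GD90 (median -0.26). RBFOX3, the antigen of the neuronal marker NeuN, rose in both intervals (0.70 and 0.71). NOVA1 (-0.58), the polypyrimidine tract binding gene PTBP1 (-0.57) and KHDRBS2 (-0.48) fell in the first, and PTBP2 (-0.84), KHDRBS1 (-0.70) and KHDRBS2 (-0.55) were the largest decreases of the second.

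The cell type markers moved over the same days. Of 12 neuronal markers, 2 rose and 0 fell between GD45 and GD60, and 7 rose and 1 fell between GD60 and GD90. All 5 tested markers of dividing cells fell in each interval. Of 5 astrocyte markers 2 rose and then all 5, and of 6 oligodendrocyte markers 2 rose and then all 6, the latter with a median log2 fold change of 5.71 and a sum of 84.6 to 111 CPM at GD60 and 1874 to 3186 CPM at GD90. Radial glia markers summed to 1791 to 3342 CPM at GD45 and 955 to 1368 CPM at GD90. The part of these shifts in the changes of the neurexins, neuroligins and LRRTMs was not tested.

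Over the 18 libraries, the 2 named genes whose log2 CPM was most alike each member by Pearson r were ARHGAP23 (0.988) and SHISA9 (0.984) for NRXN2, ZBTB16 (0.983) and AKAP6 (0.981) for NRXN3, PJA2 (0.985) and ANO5 (0.965) for NLGN1, and KCNA3 (0.963) and IGSF9B (0.961) for NLGN3. For the LRRTMs they were KCNJ4 (0.987) and ZDHHC14 (0.985) with LRRTM1, COG5 (0.922) and NETO2 (0.91998) with LRRTM2, LAMP2 (0.983) and GABRG1 (0.9799) with LRRTM3, and ALDH6A1 (0.927) and NET1 (0.911) with LRRTM4. These are descriptions of 18 libraries that share days, litters and coverage. No gene stood as the nearest match of more than 1 member.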

How the data were processed

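RNA of 18 whole fetal brains was sequenced as paired reads. Per the labels and the methods of the study, the authors trimmed reads with Trimmomatic, checked them with FastQC, aligned them to Sscrofa11.1 with HISAT2 and deposited raw counts per gene and per exon from featureCounts; the strand setting is not given in the sources used here. The tables had 22 columns, because 4 libraries were deposited as 2 runs each, which were summed. The 16719 genes named in the file kept those names, and 782 more took a name from a RefSeq table. Groups came from the labelled day and sex.

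Genes were tested in R 4.3.3 with edgeR 4.0.16 (filterByExpr, TMM factors of 0.849 to 1.07, a quasi-likelihood F test on 6 groups of day and sex, contrasts averaged over sexes, Benjamini-Hochberg adjustment, threshold 0.05). Exons were tested in the same way, and their usage with diffSpliceDGE. FPKM used the deposited lengths. Family shares were compared by exact permutation over 924 arrangements. Whether fetuses are separate experimental units within a litter is not settled by the labels, and p-values measure the spread between these samples. Fits were tested on simulated data with 200 changed features. For GD90 against GD60, 75% of genes with a log2 change of 1 and 96% with 2 were recovered. Alternatives were the likelihood ratio test, DESeq2 1.42.0, no TMM, other filters, removal of a length trend, only the libraries compared, litter as a block (limma 3.58.1) or summed, each library left out and, added later, the upstream share as a covariate. Same-litter pairs, inferred from day and litter size, had correlations of deviations from -0.09 to 0.42 and were not taken as pairs in the main fit.

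Members, pathway lists and marker lists were chosen with earlier results of these data known. All members are named, as are up to 3 called genes with the largest change in each direction per pathway list and interval, the hosts of the LRRTMs and the 2 genes most alike each member. Exons were named by usage calls, and since there were 0, those past the threshold on level are named instead, chosen after their values were seen. Sequences were read from RefSeq for Sscrofa11.1. An exon of the row downstream of NRXN2 and its NRXN3 counterpart are not reported here.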

Additional observations from a re-analysis of the deposited data

Results flagged for a closer look

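In 4 cases, a member's share in its family stood apart from the other 5 of their group by Dixon's criterion, and all belong to male GD45 replicate 17. Its share of NRXN3 in NRXN2 plus NRXN3 was 2.13%, with the next at 4.21%, and its share of NLGN1 in NLGN1 plus NLGN3 was 15.0%, with the next at 22.2%. Among the LRRTMs it had 61.9% LRRTM1, with the next at 50.4%, and 26.7% LRRTM2, with the next at 35.9%. The criterion was applied to 42 groups and marked 4, where chance marks about 1 in 20. The same library had the lowest upstream share (76.9%), and 1.32% of its NLGN1 exon counts lay outside the last exon against 8.64% to 26.2% in the other GD45 libraries. Its part in these 4 values was not tested.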

How the results depend on the processing

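The calls of LRRTM1 and LRRTM4 in the 3 developmental comparisons, and those of LRRTM3 and NRXN3 at GD90 against GD60 and GD45, held in all 10 settings and with each library left out. With 1 library left out, 2 to 4 members passed at GD60 against GD45 (4 without replicate 14), beside 2 with all. In females at GD60 against GD45, 1 member passed, and 2 with DESeq2 or without a length trend, 0 with only the libraries compared, 3 with the covariate and 0 to 3 with 1 left out (3 without replicate 17, 0 without 5, 13, 15 or 18). In males it was 1, and 2 with DESeq2, without TMM or without a length trend, 0 with only the libraries compared, 3 with the covariate and 0 to 2 with 1 left out (2 without 4 or 17, 0 without 6, 14 or 16). At GD90 against GD60 in females, 2 became 5 with the covariate. With only the libraries compared, 1 member passed instead of 0 for males against females at GD90 and for the second interaction, which gave 0 to 1 with 1 left out (1 without 17). Exons past the threshold at GD60 against GD45 were 2, but 1 without TMM or with a filter of 1 CPM in 3 libraries, 0 with only the libraries compared or litter sums, and 0 to 2 with 1 left out. At GD90 against GD60 they were 12, and 5 to 13 with 1 left out (5 without replicate 7, 7 without 16). Changed shares were 1 and 4, and 0 with litter means, where 3 against 3 cannot pass. With 1 left out they were 1 to 2 (2 without 17) and 2 to 4 (2 without 1, 8 or 10). The covariate turned the sign of NRXN3 at GD60 against GD45 (-0.038), LRRTM2 at GD90 against GD60 (-0.042) and the second interaction of NRXN3 (-0.070). Without gene length the LRRTM2 share at GD60 against GD45 changed by 1.23 points instead of -0.0021. With 1 left out, NLGN1 at GD60 against GD45 ranged from -0.21 to 0.055, and the shares of LRRTM2 from -1.87 to 1.00 and of LRRTM3 from -0.41 to 0.052 points. None of these reversed values was past the threshold, and the cause was not tested. Litter as a replicate block changed no count of members by over 1.5 times. All genes called at GD60 against GD45 ranged from 1911 to 4049 over the settings, beside 2730. Of simulated exons with a log2 change of 1 at GD90 against GD60, 9% were recovered.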
